A study of Mus musculus with 7 samples.

Results

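Imprinted genes are transcribed mainly from 1 parental copy, and 40 of them were followed here across 7 mouse expression arrays. They are known imprinted genes, grouped by the domain they lie in and by the expressed copy. That copy is the one known for the gene, was not measured here and need not hold in every tissue. The authors of the data describe Igf2r, for example, as expressed from both copies in neural tissues. No measured value enters the rule for membership, but the list was chosen with earlier results of these data known. On the arrays 38 of the 40 genes had a probe set annotated to that gene alone, among 18194 such genes in all. The 38 comprised 19 genes expressed from the paternal copy, 17 expressed from the maternal copy, and 2 genes, Grb10 and Gnas, whose expressed copy depends on the isoform or cell type. Of the remaining genes, Zrsr1 had no annotated probe set, and H19 was covered only by a probe set that is also annotated to the microRNA gene Mir675. The values of that probe set are given below, outside all counts.

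The series held 1 array each of adult Brain, Liver and skeletal muscle (Sk_muscle) from male ICR mice more than 9 weeks old, of ectoderm (Ect), endoderm (End) and paraxial mesoderm (Pme) obtained by differentiating SK7 embryonic stem cells in culture, and of the undifferentiated SK7 cells (SK7_ESC). SK7 is a male line that carries a GFP transgene driven by the Pdx1 promoter, and all cultured samples share that line and transgene. The labels give ICR as the strain of all 7 samples. With 1 array per group there was no spread between replicates, so no difference reported here has a replicate check, a standard deviation or a p-value.

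Imprinted genes lie in domains that are controlled by a short region whose methylation is set in the egg or the sperm and then kept through the divisions of the embryo. Paternally expressed members such as Igf2, Dlk1, Peg3 and Mest are known mostly as promoters of growth, whereas maternally expressed members such as H19, Igf2r, Cdkn1c and Phlda2 are known mostly as brakes on it, and many are abundant in the embryo and placenta and decline after birth. Several domains hold a long noncoding RNA, such as Kcnq1ot1 or Airn, whose transcription silences neighbouring genes on the same chromosome. An expression array adds the RNA of both parental copies, so none of the values below says which copy was transcribed.

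The start regions of 5 paternally expressed members whose promoters are known to lie in a region methylated on the maternal copy are shown, because these genes had some of the largest differences between samples described below. Each is 300 bases, from 250 bases before the transcription start to 50 after it, from RefSeq on GRCm38.p6. Capitals mark the hexamer TGCCGC or its reverse complement GCGGCA, the core that the zinc finger protein ZFP57 binds when methylated. The Peg3 window is chr7:6730370-6730669 on the minus strand, the Mest window (1 of 3 for this gene) chr6:30737800-30738099 on the plus strand, the Plagl1 window chr10:13090582-13090881 on the plus strand, the Nnat window chr2:157559828-157560127 on the plus strand and the Nap1l5 window chr6:58907077-58907376 on the minus strand.
Peg3: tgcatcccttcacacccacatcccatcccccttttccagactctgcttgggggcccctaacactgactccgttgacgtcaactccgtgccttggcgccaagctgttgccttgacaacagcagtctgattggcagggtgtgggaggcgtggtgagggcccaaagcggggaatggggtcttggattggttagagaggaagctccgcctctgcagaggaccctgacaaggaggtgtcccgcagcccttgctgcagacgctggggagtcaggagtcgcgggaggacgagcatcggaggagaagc
Mest: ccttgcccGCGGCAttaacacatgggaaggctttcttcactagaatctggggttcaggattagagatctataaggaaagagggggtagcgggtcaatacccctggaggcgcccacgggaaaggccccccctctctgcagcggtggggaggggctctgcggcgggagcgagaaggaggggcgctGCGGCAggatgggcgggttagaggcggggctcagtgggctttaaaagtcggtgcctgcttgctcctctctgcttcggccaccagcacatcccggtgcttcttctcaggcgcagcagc
Plagl1: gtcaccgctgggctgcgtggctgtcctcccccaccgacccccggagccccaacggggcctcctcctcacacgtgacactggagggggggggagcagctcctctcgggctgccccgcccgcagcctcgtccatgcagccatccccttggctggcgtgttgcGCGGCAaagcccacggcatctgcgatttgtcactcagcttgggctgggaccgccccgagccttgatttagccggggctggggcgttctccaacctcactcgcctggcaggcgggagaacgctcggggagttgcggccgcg
Nnat: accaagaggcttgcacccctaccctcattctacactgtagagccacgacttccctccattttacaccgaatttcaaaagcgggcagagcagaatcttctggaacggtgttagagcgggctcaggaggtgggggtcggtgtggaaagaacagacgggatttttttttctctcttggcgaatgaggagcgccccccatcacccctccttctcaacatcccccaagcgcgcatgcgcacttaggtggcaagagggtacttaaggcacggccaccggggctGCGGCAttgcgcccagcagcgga
Nap1l5: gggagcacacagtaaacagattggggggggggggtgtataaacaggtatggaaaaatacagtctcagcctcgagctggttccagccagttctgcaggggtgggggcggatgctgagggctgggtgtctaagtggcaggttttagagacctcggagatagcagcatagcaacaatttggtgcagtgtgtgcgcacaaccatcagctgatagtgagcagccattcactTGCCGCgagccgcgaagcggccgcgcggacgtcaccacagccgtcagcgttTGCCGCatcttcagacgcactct
These windows held 13 (Peg3), 17 (Mest), 26 (Plagl1), 17 (Nnat) and 17 (Nap1l5) CpG dinucleotides. Searched on both strands, the hexamer was found in a start window of 12 of the 35 members that had one (34.3%), against 13.1% of the 27025 genes in the same table. It was found for 6 of 17 paternally (35.3%) and 5 of 16 maternally expressed members (31.2%). The median CpG number of the windows (taking the richest window of a gene) was 17 for the members and 8 for all genes. A gene with several windows was counted when any of them held the hexamer, and some members, such as Igf2 and Snrpn, had 4 windows. The hexamer itself holds a CpG. The parts of CpG number and of window number in the difference between members and all genes were not tested. The Peg3 window held no such hexamer, which says only that these letters were not in these 300 bases. Peg3 and Usp29, a ubiquitin protease gene of the same domain, are transcribed away from each other from start sites 164 bases apart, so that 263 bases of their windows were shared.

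H19 RNA is also the precursor of a microRNA, and the probe set annotated to H19 was annotated to Mir675 as well. The mature products are given with their seed, bases 2 to 8, in capitals (RefSeq, GRCm38.p6, minus strand), at chr7:142577112-142577133 for miR-675-5p and chr7:142577078-142577099 for miR-675-3p.
miR-675-5p: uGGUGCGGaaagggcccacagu
miR-675-3p: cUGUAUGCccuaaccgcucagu
The seeds of these products differ from each other. The mature microRNAs themselves were not measured by this array.

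Every array had been scaled to an average signal of 100 before deposit, and in each of them 7821 to 9078 genes had a signal of at least 50, which is used here as the background limit. Between 2 arrays a gene was called higher or lower where the brighter signal was at least 50 and at least 2 times the dimmer, with a dimmer signal under 50 first raised to 50, in which case the fold is a lower limit written as "at least". Markers followed the labels in most samples: 10 of 10 neuron and 9 of 10 glia markers were called higher in Brain than in both other tissues, 12 of 12 hepatocyte markers in Liver, 13 of 13 muscle fibre markers in Sk_muscle, 10 of 10 endoderm markers in End and 8 of 12 neural markers in Ect than in both other layers. The array labelled Pme was the exception. Against both other layers 1 of 10 paraxial mesoderm markers, Pdgfra, was called higher in Pme and 0 lower. In Pme 3 of the 10 were above background: Pdgfra at 1062, Foxc1 at 82.7 and Tbx18 at 69.9. Relative to SK7_ESC, Pdgfra was higher and Tcf15 lower, and Tbx6, a defining marker, had a signal of 17.7 in Pme. Fibroblast markers moved with the Pme array: 12 of 15 were higher here, and none lower, than in SK7_ESC. Summed over the list Ect gave 7837, End 3589 and Pme 18538, against 4430 in SK7_ESC. The sum was 2708 in Brain, 10446 in Liver and 17029 in Sk_muscle, and no marker of the list was at 0 in any array. Of 12 extraembryonic endoderm and trophoblast markers, 2 were higher and 2 lower when Pme was set against SK7_ESC, with Cdx2 at 415 in Pme against 1.6 in SK7_ESC and Hand1 at 469.5 in Pme against 19.6 in SK7_ESC, while the trophoblast factor Elf5 was at 1.5 in Pme. Their summed signal was 1570 in Pme against 2726 in SK7_ESC.

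In each germ layer more imprinted genes were higher than lower relative to SK7_ESC, and Pme had the most. In Ect 10 of the 38 genes were called higher (6.62% of all 18194 genes were) and 2 lower (4.89% of all genes). In End 11 were called higher (4.89% of all genes) and 1 lower (3.81% of all genes). In Pme 17 were called higher (6.74% of all genes) and 0 lower (4.55% of all genes). On the log2 scale, with signals under 50 raised to 50, the 38 genes had a median ratio to SK7_ESC of 0.07 for Ect, 0.29 for End and 0.63 for Pme, against 0 for all genes in each. The numbers of higher members depended on the probe sets used: they were 6 for Ect and 5 for End when the probe sets of each gene were averaged geometrically, and 5 for Ect and 11 for Pme, of 33 measured, without probe sets marked as shared sequence. With a 3-fold rule 10 were higher in Pme. The 3 comparisons share the SK7_ESC array. Peg3, Sgce, Mest, Ndn, Grb10, Gnas and Nnat, 7 of the 38, were higher in all 3 layers (1.76% of all genes), and 19 genes were higher in at least 1 (11.8% of all genes). Of these 7, Mest and Nnat stayed so with the geometric mean of the probe sets, Peg3, Mest and Ndn without probe sets marked as shared sequence, where Grb10 and Nnat were not measured, and Peg3, Sgce, Mest and Ndn with a 3-fold rule. Because each array measured a mixture of cells, fewer cells of a type and less RNA per cell cannot be told apart in any of these differences. Fibroblast markers, Cdx2 and Hand1 were also higher in Pme, and their part in the result was not tested.

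**Figure D1:**
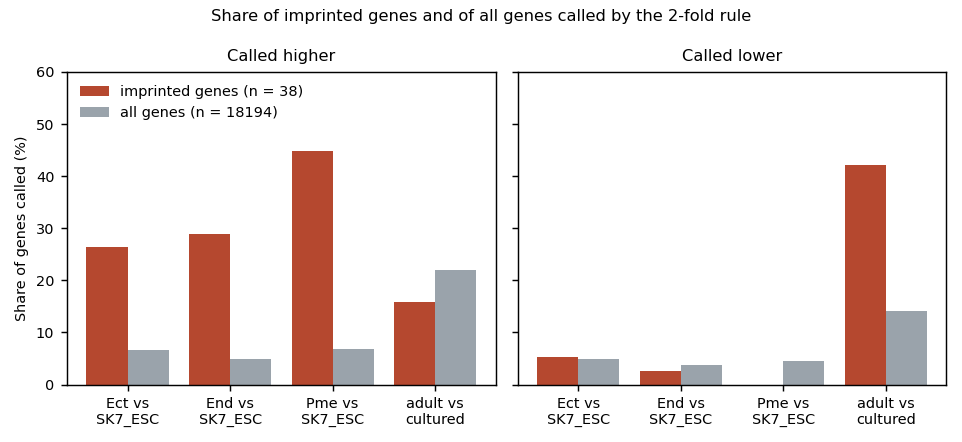
Share of the 38 imprinted genes and of all 18194 genes (percent, vertical axis) called higher (left) or lower (right) in each germ layer against SK7_ESC and in the adult tissues against the cultured cells, 1 array per sample. In Pme 17 of 38 imprinted genes were called higher and 0 lower, and in the adult tissues 16 of 38 were called lower.

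**Figure D2:**
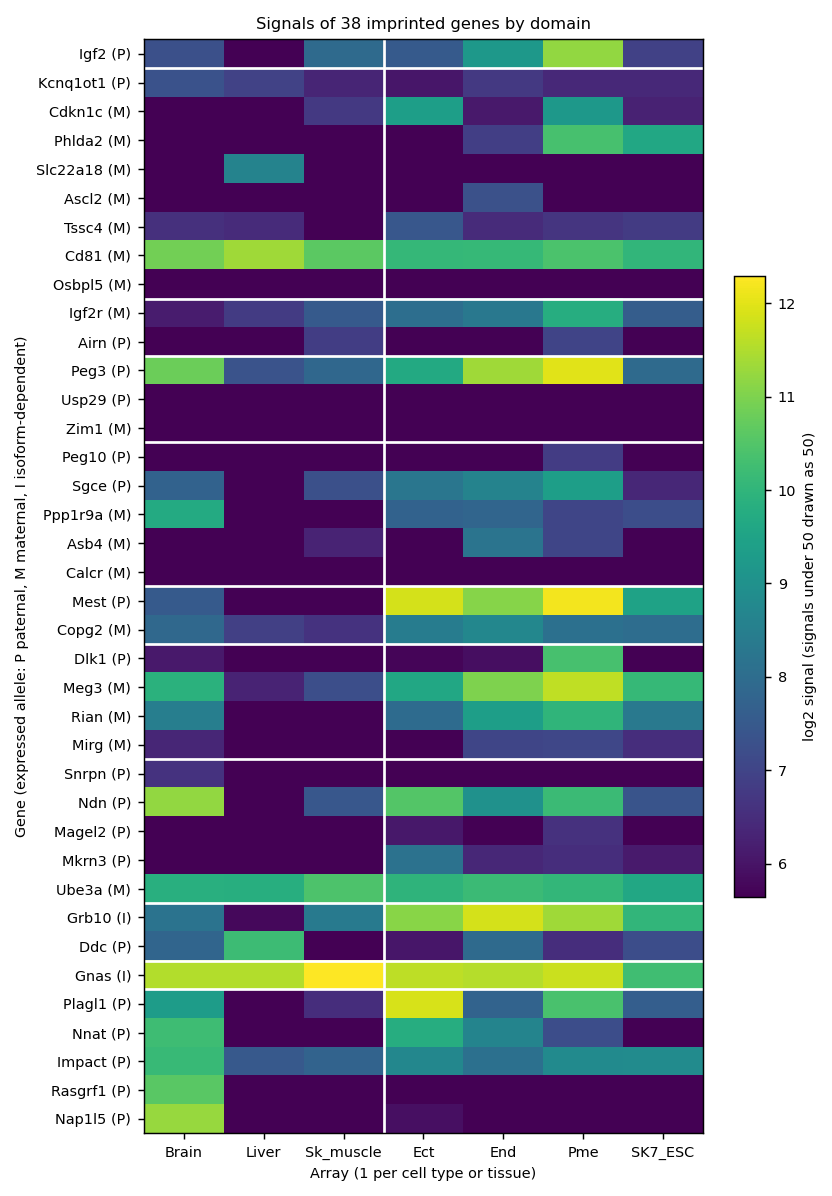
Signals of the 38 imprinted genes (rows, grouped by domain, with the expressed copy in parentheses) in the 7 arrays (columns), as log2 signal with signals under 50 drawn as 50. Rasgrf1 and Nap1l5 had their highest signals in Brain, Slc22a18 in Liver, and Ube3a, Cd81 and Gnas were bright in all 7 arrays.

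In the Igf2-H19 domain, Igf2 encodes insulin-like growth factor 2, a fetal growth factor. Its signal was 153 in Brain, 6.0 in Liver, 246 in Sk_muscle, 186 in Ect, 583 in End, 2384 in Pme and 121 in SK7_ESC. Pme was thus 19.7-fold and End 4.82-fold above SK7_ESC, while Ect, at 1.53-fold, was not called. With this main probe set Liver, where Igf2 is abundant before birth, was the only array under background. The other Igf2 probe set passed background in Pme alone, at 77.7, and gave 17.2 in Liver and 8.9 in End. With the geometric mean of the probe sets the End call was lost (log2 ratio 0.53). The probe set annotated to H19 and Mir675 gave 9.3 in Brain, 8.0 in Liver, 5994 in Sk_muscle, 346 in Ect, 2748 in End, 5016 in Pme and 471 in SK7_ESC. H19 is a noncoding RNA expressed from the opposite parental copy, and the known enhancers of the domain serve both genes. Its probe set exceeded SK7_ESC 5.84-fold in End and 10.7-fold in Pme, so that it shared with Igf2 the order Pme, End, then Ect and SK7_ESC among the cultured cells, although Ect was here below SK7_ESC. In the adult tissues they differed. In Brain Igf2 was above background with its main probe set, but at 4.6 with the other, and the H19 probe set was below background. Sk_muscle was the brightest of the 7 arrays for the H19 probe set but not for Igf2.

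The receptor that removes IGF2 from the cell surface, Igf2r, showed a smaller difference in the same array. Its signal was 70.4 in Brain, 112 in Liver, 184.5 in Sk_muscle, 264 in Ect, 314 in End, 876 in Pme and 194 in SK7_ESC, so Pme was 4.53-fold above SK7_ESC. Airn, the noncoding RNA transcribed across Igf2r on the paternal copy, gave 12.8 in Brain, 14.7 in Liver, 115 in Sk_muscle, 20 in Ect, 24.5 in End, 128 in Pme and 11 in SK7_ESC. It was above background in Sk_muscle and Pme alone, at least 2.57-fold above SK7_ESC in Pme, and 3 of its 5 probe sets passed background, all of them highest in Pme. The fibroblast markers were also highest in these arrays, and their part in the Airn signal was not tested. Whether the Airn probe sets also detect unspliced Igf2r RNA was not examined.

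The Dlk1-Meg3 domain pairs Dlk1, a membrane protein related to Notch ligands and expressed from the paternal copy, with the maternally expressed noncoding RNAs Meg3, Rian and Mirg. Dlk1 had a signal of 68.1 in Brain, 2.5 in Liver, 20.7 in Sk_muscle, 53.0 in Ect, 59.7 in End, 1306 in Pme and 32.8 in SK7_ESC. Pme was at least 26.1-fold above SK7_ESC, the largest fold of any member in this comparison. It was seen by 1 of the 2 Dlk1 probe sets, since the other was highest in Brain, at 102, and under background in all cultured arrays.

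Rian, the host of box C/D small nucleolar RNAs, gave 360 in Brain, 4.4 in Liver, 10.1 in Sk_muscle, 251 in Ect, 664 in End, 1018 in Pme and 320.0 in SK7_ESC. Mirg, the host of a microRNA cluster, gave 82.4 in Brain, 18.9 in Liver, 22.7 in Sk_muscle, 37.5 in Ect, 132 in End, 133 in Pme and 92.0 in SK7_ESC. Rian was higher in End (2.08-fold) and Pme (3.18-fold) than in SK7_ESC, and Mirg was called in no layer. Meg3 gave 957 in Brain, 79.4 in Liver, 153 in Sk_muscle, 796.5 in Ect, 2060 in End, 3217 in Pme and 1095 in SK7_ESC with its brightest probe set, 2.94-fold above SK7_ESC in Pme. The 3 noncoding RNAs were thus already above background in SK7_ESC, where Dlk1 was not.

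The 11 probe sets annotated to Meg3 did not give a common picture. Highest in Pme were 4 of them, with a median of 552 in Brain, 36.6 in Liver, 54.0 in Sk_muscle, 467 in Ect, 1274 in End, 2193 in Pme and 638 in SK7_ESC. The other 7 were highest in Brain, with a median of 573 there, 16.2 in Liver, 10.4 in Sk_muscle, 28.5 in Ect, 48.1 in End, 68.5 in Pme and 27.1 in SK7_ESC. Both sets were bright in Brain, but 1 set was near background in most cultured arrays. Meg3 RNA is spliced into many forms, and which of them each probe set matches was not examined.

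**Figure D3:**
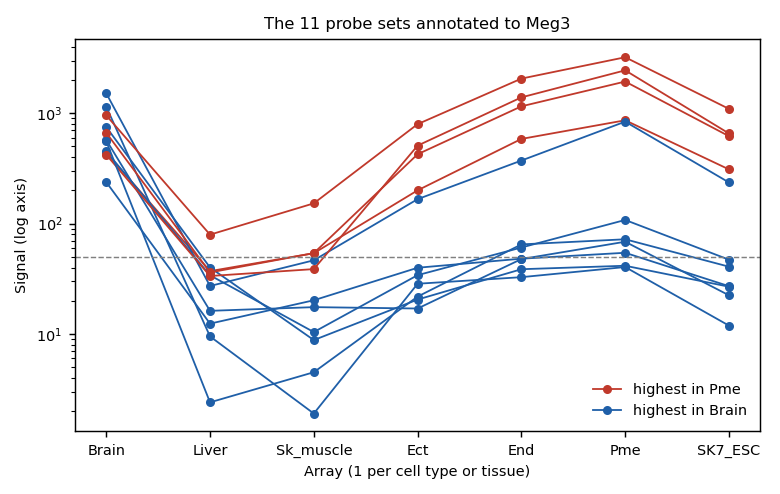
Signals (log axis) of the 11 probe sets annotated to Meg3 in the 7 arrays, each line being 1 probe set and the dashed line the background of 50. The 7 probe sets highest in Brain had a median of 68.5 in Pme, and the 4 highest in Pme had a median of 2193 there.

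Mest, a hydrolase-like protein expressed from the paternal copy, was higher in all layers. Its signal was 183.5 in Brain, 31.2 in Liver, 45.6 in Sk_muscle, 3748 in Ect, 2163 in End, 4590 in Pme and 717 in SK7_ESC, that is 5.23-fold, 3.02-fold and 6.4-fold above SK7_ESC in Ect, End and Pme. Its neighbour Copg2, which encodes a subunit of the vesicle coat, ranged from 98.5 in Sk_muscle to 419 in End and was called in no layer.

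Peg3, a zinc finger protein gene, was among the members with the largest folds. It gave 1785 in Brain, 164 in Liver, 235 in Sk_muscle, 819 in Ect, 2596 in End, 4115 in Pme and 244 in SK7_ESC, so Ect was 3.35-fold, End 10.6-fold and Pme 16.8-fold above SK7_ESC. All 3 of its probe sets above background were highest in Pme. Usp29, whose start window overlaps that of Peg3, stayed under background in all arrays with its main probe set, at most 46.2 in End. Its other probe set gave 163 in Brain and was under background in the 6 other arrays. Zim1, a zinc finger gene of the same domain expressed from the maternal copy, reached 49.7 in Pme.

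In the Peg10-Sgce domain, Sgce encodes epsilon-sarcoglycan, a membrane protein of the complex that joins the cytoskeleton to the matrix. Its signal was 211 in Brain, 27.1 in Liver, 154 in Sk_muscle, 307 in Ect, 394 in End, 667 in Pme and 84.2 in SK7_ESC, 3.65-fold, 4.68-fold and 7.92-fold above SK7_ESC in Ect, End and Pme. These calls rest on 1 probe set, marked as shared sequence, since the other was under background in all arrays, at most 27.7. Peg10, a gene of retrotransposon origin needed in the placenta, passed background in Pme alone, at 113. Its start site lies close to that of Sgce and both are expressed from the paternal copy, yet Sgce was above background in 6 arrays. Asb4, an adaptor of ubiquitin ligases expressed from the maternal copy, gave 27.0 in Brain, 14.3 in Liver, 79.0 in Sk_muscle, 16.4 in Ect, 295 in End, 132 in Pme and 7.0 in SK7_ESC. End was at least 5.89-fold and Pme at least 2.63-fold above SK7_ESC for this gene, and both its probe sets were highest in End. Ppp1r9a, which encodes the actin-binding protein neurabin, was highest in Brain, at 835, and lay between 131 and 223 in the cultured arrays without a call. Calcr, the calcitonin receptor, reached 23.4 at most.

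The Kcnq1ot1 domain had the most listed members, 8, and these did not move together. Kcnq1ot1, the paternally transcribed noncoding RNA, lay between 65.9 in Ect and 159 in Brain and was called in no comparison. Cdkn1c, an inhibitor of the cell cycle expressed from the maternal copy, gave 22.2 in Brain, 11.3 in Liver, 107 in Sk_muscle, 668 in Ect, 68.9 in End, 585 in Pme and 77.6 in SK7_ESC. It was 8.61-fold higher in Ect and 7.54-fold higher in Pme than in SK7_ESC, whereas End lay at the level of SK7_ESC. Phlda2, a restraint on placental growth, gave 3.1 in Brain, 21.6 in Liver, 1.9 in Sk_muscle, 22.4 in Ect, 117 in End, 1319 in Pme and 799 in SK7_ESC. Ect lay at least 16.0-fold and End 6.86-fold below SK7_ESC, and it was the only member lower in more than 1 layer. Ascl2, a transcription factor of the trophoblast, was above background in End alone, at 156 against 37.0 in SK7_ESC, and all its 3 probe sets were highest there. Slc22a18, an organic cation transporter-like protein, was above background in Liver alone, at 390.2. Tssc4 ranged from 41.2 in Sk_muscle to 175.5 in Ect, and Cd81, a widely expressed tetraspanin, from 1035 in SK7_ESC to 2620 in Liver, and neither was called. Osbpl5, an oxysterol-binding protein relative, reached 48 in Sk_muscle.

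**Figure D4:**
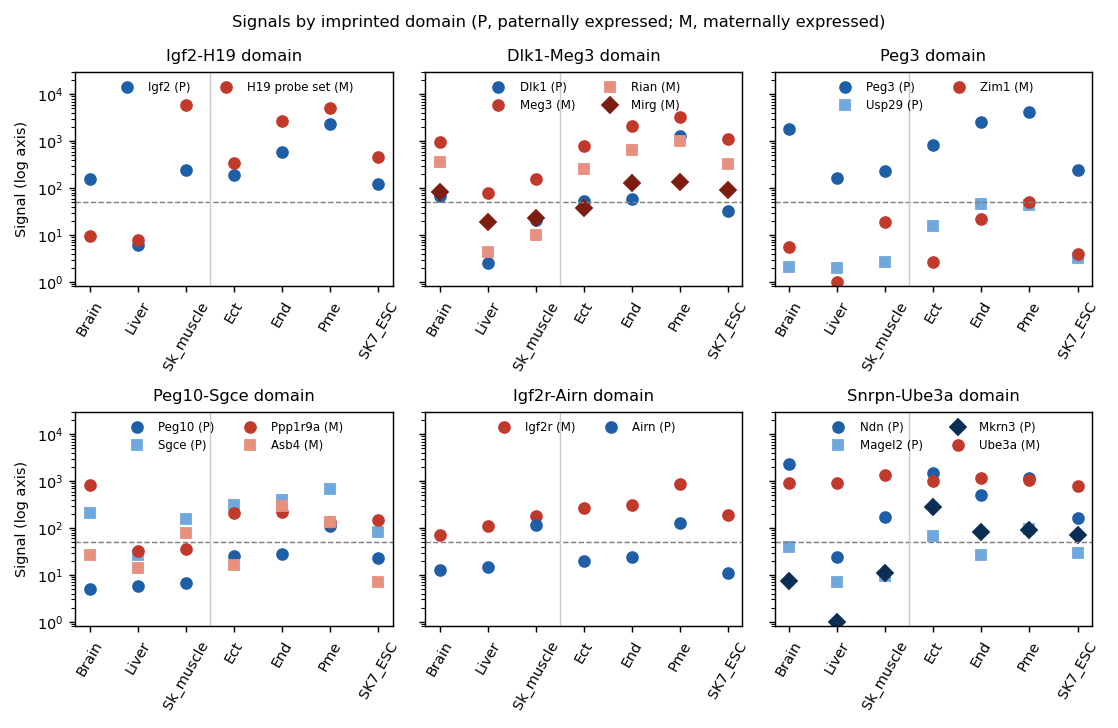
Signals (log axis, values under 1 drawn at 1) of genes in 6 imprinted domains across the 7 arrays, blue for paternally and red for maternally expressed genes, with the background of 50 as a dashed line. Igf2 and the H19 probe set, and Dlk1 and the noncoding RNAs of its domain, had their highest cultured signals in Pme, and Ube3a stayed between 792 and 1374.

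In the Snrpn-Ube3a domain, whose loss causes Prader-Willi or Angelman syndrome in humans depending on the parent of origin, the paternally expressed Ndn encodes a MAGE-family protein abundant in neurons. Its signal was 2374 in Brain, 23.7 in Liver, 173 in Sk_muscle, 1458 in Ect, 513 in End, 1165 in Pme and 166 in SK7_ESC, so that Ect was 8.78-fold, End 3.09-fold and Pme 7.02-fold above SK7_ESC. All 5 of its probe sets above background were highest in Brain. Mkrn3, a RING finger protein gene, gave 7.6 in Brain, 0.4 in Liver, 11.2 in Sk_muscle, 282 in Ect, 83.1 in End, 91.9 in Pme and 70.2 in SK7_ESC, 4.02-fold above SK7_ESC in Ect. Magel2, a relative of Ndn, was above background in Ect (66.9) and Pme (97.3), without a call. Ube3a, the maternally expressed ubiquitin ligase, ranged from 792 in SK7_ESC to 1374 in Sk_muscle and was called nowhere. The probe set annotated to Snrpn alone was above background in Brain only, at 98.5. The brightest probe set annotated jointly to Snrpn and Snurf, genes that share 1 transcript, gave 3181 in Brain, 199 in Liver, 686 in Sk_muscle, 817 in Ect, 1052 in End, 1109 in Pme and 960.2 in SK7_ESC. In each layer this probe set stayed within 1.18-fold of SK7_ESC. Another joint probe set was 1.64-fold lower in Ect, at 464 against 762 in SK7_ESC, which is short of a call.

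Grb10 and Gnas, the members without a fixed expressed copy, were higher in all 3 layers. Grb10, an adaptor that dampens insulin and IGF signalling, gave 289 in Brain, 55.2 in Liver, 331 in Sk_muscle, 2198 in Ect, 3707 in End, 2581 in Pme and 1042 in SK7_ESC, 2.11-fold, 3.56-fold and 2.48-fold above SK7_ESC in Ect, End and Pme. Gnas, which encodes the stimulatory G protein subunit, gave 2944 in Brain, 2965 in Liver, 5017 in Sk_muscle, 3185 in Ect, 3028 in End, 3442 in Pme and 1226 in SK7_ESC, and the layers were 2.47-fold to 2.81-fold above SK7_ESC. SK7_ESC was the lowest array for Gnas. The Gnas calls rest on 1 probe set, marked as shared sequence, and its 4 other probe sets were under background in all arrays, at most 35.5. Ddc, the aromatic amino acid decarboxylase next to Grb10, gave 227 in Brain, 1175 in Liver, 16.8 in Sk_muscle, 66.6 in Ect, 245 in End, 90.8 in Pme and 148 in SK7_ESC, and was 2.22-fold lower in Ect than in SK7_ESC.

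Of the members that stand alone, Plagl1 and Nnat, whose start windows are printed above, had the largest folds in Ect. Plagl1, a zinc finger factor linked to cell cycle arrest, gave 644 in Brain, 28.0 in Liver, 91.4 in Sk_muscle, 3764 in Ect, 217 in End, 1340 in Pme and 197 in SK7_ESC, 19.1-fold above SK7_ESC in Ect and 6.81-fold in Pme. Both calls were lost without probe sets marked as shared sequence, and the Pme call also with the geometric mean of the probe sets (log2 ratio 0.76). Nnat, which encodes neuronatin, a small membrane protein of neural and endocrine cells, gave 1208 in Brain, 2.4 in Liver, 32.5 in Sk_muscle, 890.2 in Ect, 400.5 in End, 150 in Pme and 35.8 in SK7_ESC. It was at least 17.8-fold, 8.01-fold and 3.0-fold above SK7_ESC in Ect, End and Pme. Impact, a regulator of translation, lay between 276 and 464 in the cultured arrays and was called in none of the layers. Rasgrf1, a neuronal exchange factor for RAS, and Nap1l5, a relative of nucleosome assembly proteins, were also called in no layer: Rasgrf1 was under background in all cultured arrays, and Nap1l5 passed it in Ect alone, at 60.9.

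Among the layers themselves, each had its own set of higher members. Against both other layers Pme was higher in 6 genes (2.06% of all genes were), namely Igf2, Phlda2, Igf2r, Airn, Peg10 and Dlk1, with Dlk1 at 21.9-fold and Phlda2 at 11.3-fold over the brighter of Ect and End. End was higher in 3 (1.86% of all genes), Ascl2, Asb4 and Ddc. Ect was higher in 3 (1.82% of all genes), Mkrn3, Plagl1 and Nnat, by 2.22-fold to 3.07-fold. These numbers were small and moved with the settings: Ect had 1 without probe sets marked as shared sequence, and with a 3-fold rule Ect had 1, End 1 and Pme 3. Ect was also lower than both other layers in 7 genes (1.17% of all genes), Igf2, Phlda2, Peg3, Asb4, Meg3, Rian and Mirg, which include all 3 noncoding RNAs of the Dlk1-Meg3 domain. End was lower in 3 (1.33% of all genes), Cdkn1c, Ndn and Plagl1, and Pme in 1 (0.401% of all genes), Nnat. In all, 15 of the 38 members (39.5%) were above background and had their highest cultured signal in Pme, against 12.7% of all genes. Of the fibroblast markers, 11 of 15 were higher in Pme than in both other layers, and their part in the Pme result was not tested.

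In the adult tissues most of the differences lay in Brain. Brain was higher than both other tissues in 11 members, or 28.9% (10.8% of all genes), Liver in 2 (7.71% of all genes) and Sk_muscle in 2 (7.47% of all genes). The 11 were Peg3, Ppp1r9a, Mest, Meg3, Rian, Ndn, Plagl1, Nnat, Impact, Rasgrf1 and Nap1l5, of which Nap1l5 had the largest fold, with 2451 in Brain, 8.4 in Liver and 1.8 in Sk_muscle. Rasgrf1 gave 1555 in Brain, 34.0 in Liver and 2.5 in Sk_muscle, and all its 3 probe sets were highest in Brain. These differences were at least 49.0-fold for Nap1l5, at least 31.1-fold for Rasgrf1 and at least 24.2-fold for Nnat. Neuron and glia markers were higher in Brain as well, and their part in these differences was not tested. Liver was higher in Slc22a18 and Ddc, and Sk_muscle in Cdkn1c and Airn. No member was lower in Brain than in both other tissues (4.08% of all genes), 4 were lower in Liver, namely Igf2, Sgce, Ndn and Grb10 (4.18% of all genes), and Ddc was the 1 member lower in Sk_muscle (2.62% of all genes). Brain had 25 members above background, Sk_muscle 17 and Liver 13, the fewest of the 7 arrays. In the cultured arrays 25 were above background in Ect, 27 in End, 29 in Pme and 23 in SK7_ESC.

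The adult tissues reached lower levels than the cultured cells for many imprinted genes. Comparing the highest of the 3 adult signals with the highest of the 4 cultured signals, 16 of the 38 members were lower in the adult tissues (14.1% of all genes were), and 6 were higher (21.9% of all genes). The median log2 ratio of the members was -0.76, against 0 for all genes. Phlda2 was at least 26.4-fold, Mest 25.0-fold, Dlk1 19.2-fold, Grb10 11.2-fold and Igf2 9.68-fold lower in the brightest adult tissue than in the brightest cultured sample. Phlda2, Ascl2, Peg10, Magel2 and Mkrn3 were under background in all 3 adult tissues but above it in culture. The 6 higher members were Slc22a18, Ppp1r9a, Ddc, Impact, Rasgrf1 and Nap1l5, of which all but Slc22a18 and Ddc were brightest in Brain. Leaving out the Pme array reduced the lower members to 10 (13.0% of all genes), and leaving out the Brain array reduced the higher ones to 2 (14.9% of all genes). With the geometric mean of the probe sets Ppp1r9a, Dlk1, Rian, Ddc and Impact were no longer called and Meg3 turned to higher (log2 ratio 1.21). Without probe sets marked as shared sequence Sgce, Plagl1 and Rasgrf1 were no longer called, Dlk1 turned to higher (log2 ratio 1.03) and Grb10 was not measured. The comparison joins tissue against culture with adult against early stage, and these cannot be told apart.

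**Figure D5:**
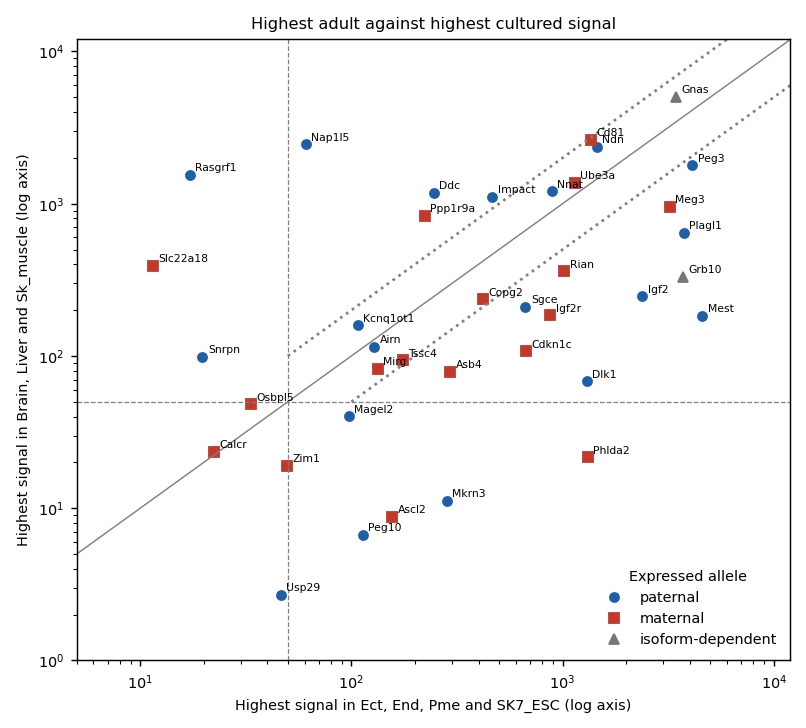
Highest adult signal (vertical, log axis) against highest cultured signal (horizontal, log axis) of the 38 imprinted genes, with equality as the solid line, 2-fold as dotted lines and the background of 50 as dashed lines. Of the 38, 16 were called lower in the adult tissues, with Mest at 183.5 against 4590, and 6 were called higher, with Nap1l5 at 2451 against 60.9.

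The calls were also split by the expressed copy. In Ect 7 of 19 paternally expressed members (36.8%) and 1 of 17 maternally expressed members (5.88%) were higher than in SK7_ESC, and the maternal share was near that of all genes, 6.62%. In End 6 and 3 were higher (4.89% of all genes), and in Pme 10 and 5 (6.74% of all genes). Of the 11 members higher in Brain than in both other tissues, 8 were paternally and 3 maternally expressed (10.8% of all genes were higher there). In the adult tissues 8 of 19 paternally and 7 of 17 maternally expressed members were lower than in culture (14.1% of all genes). Median log2 ratios to SK7_ESC in Pme were 1.18 for the paternally and 0.39 for the maternally expressed members. In Ect they were 0.28 and 0. In End the order was the other way, with 0.24 for the paternally and 0.52 for the maternally expressed members. Whether these shares differ was not tested, since members of 1 domain share their control region and are not independent.

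Some members were under background, or not called in any comparison. The 4 genes Osbpl5, Usp29, Zim1 and Calcr never passed background with their main probe set, 34 did in at least 1 array (68.5% of all genes did), 29 in at least 1 adult array (61.7% of all genes), 31 in at least 1 cultured array (55.0% of all genes), and 10 did in all 7 (27.8% of all genes). Above background in at least 1 array but called in none of the comparisons were 7 members, or 18.4% (18.9% of all genes), namely Kcnq1ot1, Tssc4, Cd81, Copg2, Snrpn, Magel2 and Ube3a. For Snrpn this holds only for the probe set annotated to it alone. The brightest probe set annotated jointly to Snrpn and Snurf gave 3181 in Brain, 199 in Liver and 686 in Sk_muscle, and its highest adult signal was 2.87-fold above its highest cultured signal. Of 19 members with at least 2 probe sets above background, 14 had all of these brightest in the same array, and the exceptions were Dlk1, Meg3, Rian, Ube3a and Impact.

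A separate list held 22 factors linked to the setting, upkeep or loss of imprints, and 21 were measured. Not all of them set or keep methylation: Tet1, Tet2 and Eed were on the list, and were lower than in SK7_ESC in every layer. Those called below SK7_ESC numbered 7 for Ect (4.89% of all genes), 7 for End (3.81% of all genes) and 10 for Pme (4.55% of all genes), and none was called higher in any layer. The others were not called, among them Dnmt1, at 789 in Ect, 459 in End, 521 in Pme and 710 in SK7_ESC. Uhrf1 was lower in Pme alone, by 2.03-fold. Dnmt3b was lower in Ect (333) and Pme (599) than in SK7_ESC (1888), but not in End (3480), which exceeded both other layers. Dnmt3l, the cofactor of new DNA methylation in germ cells, gave 8.3 in Brain, 17.9 in Liver, 11.2 in Sk_muscle, 15.0 in Ect, 1.6 in End, 7.5 in Pme and 848 in SK7_ESC, at least 17.0-fold lower in every layer. Zfp57 encodes the protein that binds the hexamer shown above and, with its partner Trim28, is named for that reason and not for its fold. It gave 2.1 in Brain, 1.7 in Liver, 1.9 in Sk_muscle, 10.6 in Ect, 49.5 in End, 46.3 in Pme and 104 in SK7_ESC, and was above background in SK7_ESC alone. Trim28 was bright in culture, at 2991 in Ect, 2451 in End, 2578 in Pme and 3663 in SK7_ESC. Dppa3, which protects imprints in the early embryo, gave 11 in Ect, 4.7 in End, 18.7 in Pme and 252 in SK7_ESC, and Tet1, which oxidises methylated cytosine, 125 in Ect, 208 in End, 125 in Pme and 1444 in SK7_ESC. In the adult tissues 14 of the 21 were lower than in culture (14.1% of all genes) and none was higher, among them the methyltransferase Dnmt3b, at 4.5 in Brain, 55.5 in Liver and 23.5 in Sk_muscle and at most 3480 in culture, in End. Methylation itself is not part of these arrays.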

How the data were processed

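RNA from 7 samples, 1 array each, was hybridized to Affymetrix mouse expression arrays. For 45101 probe sets the authors deposited intensity on a linear scale, after global scaling to an average signal of 100. In every array the mean after trimming 2% at each end was 100. How probes were summarised, and any batch or scan time, is not stated in the sources used here. Probe sets were named through the platform annotation: 34958 carried 1 gene symbol, 932 several and 9211 were unnamed here. Of a gene's single-symbol probe sets, the one whose log2 signals averaged highest stood for the gene, which gave 18194 genes. Calls used a background signal of 50 and a 2-fold rule, with no test because there was 1 array per group. Precision is limited by this number of arrays. For tissues and layers a call had to hold against both of the others. All 40 members were accounted for. Of each other gene list up to 4 genes with the largest called ratios were named per comparison, with a few other genes beside them. The members and lists were chosen with earlier results of these data known. The calling script was tested on simulated data. There were 0 further columns of per-sample values. Python 3.11.15, numpy 2.4.6, pandas 2.3.3 and matplotlib 3.10.9 were used. Other settings tried were quantile normalization, a background of 20, scaling of the arrays to a common median, a gene's geometric mean over its probe sets, omission of probe sets whose identifiers mark shared sequence, and a 3-fold rule. Leaving out the Pme, Brain or Sk_muscle array was added after seeing the data.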

Additional observations from a re-analysis of the deposited data

How the results depend on the processing

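Of 63 calls of single members (3 layers against SK7_ESC, and adult against cultured), 63 were kept with a background of 20, 62 with quantile normalization, 60 with arrays scaled to the same median and 47 with a 3-fold rule. With the geometric mean of the probe sets 43 were kept, with 6 members higher and 1 lower in Ect, and 5 higher in End, than in SK7_ESC, and 1 each higher in Liver and in Sk_muscle than in both other tissues, and Meg3 turned from lower to higher in the adult tissues (log2 ratio 1.21). Without probe sets marked as shared sequence 33 members were measured and 56 of the 63 calls could be checked, of which 43 were kept, 12 lost and 1 reversed, with 5 members higher in Ect and 11 in Pme than in SK7_ESC and 1 in Ect against both other layers, and Dlk1 turned to higher in the adult tissues (log2 ratio 1.03). A background of 20 gave 4 members higher in Sk_muscle. A 3-fold rule gave 1 lower in Ect and 10 higher in Pme than in SK7_ESC, against both other layers 1 higher for Ect, 1 for End and 3 for Pme, and 0 for Sk_muscle. As additions made after seeing the data, adult members lower than in culture numbered 10 without the Pme array, and higher ones 2 without the Brain array. The causes were not tested. Scaling to the same median moved the share of higher calls among all genes to 41.7% in Ect, against 57.5% as deposited, to 43.2% in Pme, against 59.7%, and to 50.5% in adult against cultured, against 60.8%, while among the members it was 75.0% in Ect, against 83.3%, and 20.8% in adult against cultured, against 27.3%, with 100.0% in Pme under both. Without probe sets marked as shared sequence the member share in Ect was 71.4%. No paired analysis was possible because each group has 1 array, and no replicate could be left out.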

Other observations

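Outside the 40 genes, 36 further genes were listed as imprinted, most of them in some tissues or the placenta only. In no layer were more of them higher than lower. Of 28 measured, Ect had 4 above (6.62% of all genes) and 4 below SK7_ESC (4.89% of all genes). End had 1 above (4.89% of all genes) and 2 below (3.81% of all genes). Pme had 2 above (6.74% of all genes) and 3 below (4.55% of all genes). Sfmbt2, a Polycomb-related gene needed in the trophoblast, had a signal of 23.5 in Ect, 53.8 in End, 38.4 in Pme and 348 in SK7_ESC, and was lower in all 3 layers. Slc38a4, an amino acid transporter of placenta and liver, gave 222 in Ect, 508.5 in End, 2246 in Pme and 722 in SK7_ESC, so it was lower in Ect and higher in Pme. Gab1, a docking protein of growth factor receptors, gave 286 in Ect, 681 in End, 499 in Pme and 1342 in SK7_ESC, and was lower in Ect and Pme. Peg12 was higher in Ect, at 222, against 11.7 in SK7_ESC. Dcn, a matrix proteoglycan that is also on the fibroblast list, gave 951 in Ect, 148 in End, 1766 in Pme and 21.9 in SK7_ESC.

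In the adult tissues, compared with the cultured cells, 6 of these 28 genes were higher (21.9% of all genes) and 3 lower (14.1% of all genes). Tfpi2, a protease inhibitor, was at 1731 in Liver, against at most 5.0 in culture, and Pon3, a paraoxonase, at 591 in Liver, against at most 22.2 in culture. Both genes lie beside Sgce and Peg10 in the same domain, where Sgce itself was under background in Liver.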
